A study of Mus musculus with 18 samples.

Results

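Ifng, Il22 and Mdm1 stand in a row on mouse chromosome 10, and the stretch that holds them was read in 9 peak lists of H3K79me2, the dimethylation of lysine 79 on histone H3. The genes were chosen by name, together with the sequence between them and 100 kb on each side of Ifng, and they are 3 of 21631 protein-coding genes on chromosomes 1 to 19 and X. The measure was the percent of a gene, or the kb of a region, that lay inside the merged peaks of 1 library. Naive, Th1 and Th2 cells had 3 libraries each, all labelled WT, and each library had its own peak list on the build mm10. Naive cells were sorted straight from spleens as CD44-negative, CD62L-positive cells. For the Th1 group, enriched CD4+ T cells were stimulated for 4 days on plates coated with antibodies to CD3 and CD28 in the presence of IL-12, IL-2 and an antibody to IL-4, and YFP-positive cells were sorted from an IFNg-YFP reporter mouse. For the Th2 group the culture had IL-4, IL-2 and an antibody to IFNg, and cells were sorted by the AmCyan (IL-4) or dsRed (IL-13) signal of the 4C13R reporter. The Th1 sort therefore selected cells with an active Ifng reporter, so that a mark on Ifng in these lists is not independent of how the cells were taken. Culture, mouse line and cell state changed together between naive and polarised cells and cannot be told apart. Between Th1 and Th2 cells the cytokines and antibodies in culture, the reporter line and the sort also changed together with cell state. These cannot be told apart either. Nothing in the labels ties the 3 libraries of a group to different mice. The p-values below then reflect only how far libraries differed from each other, which may be technical.

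H3K79me2 is set by DOT1L, the histone methyltransferase for this lysine, and it usually lies over the first part of genes that are being transcribed. Ifng encodes interferon gamma, the signature cytokine of Th1 cells, which activates macrophages through a receptor that signals by JAK1 and JAK2. Il22 encodes a cytokine of the IL-10 family that acts on epithelial cells and is made by Th17 cells and some innate lymphocytes. Mdm1 encodes a microtubule-binding protein of centrioles and belongs to neither cytokine system. Ifngas1, a long noncoding RNA gene also known as NeST or Tmevpg1, lies beyond Ifng on the opposite strand, and Iltifb is a near-identical copy of Il22 between Il22 and Ifng.

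By RefSeq on GRCm38.p6, which mm10 is built on, Mdm1 spans chr10:118141540-118168999 on the plus strand, Il22 chr10:118204584-118210047 on the plus strand and Ifng chr10:118441046-118445894 on the plus strand. Iltifb spans chr10:118289629-118295038 and Ifngas1 chr10:118502035-118556525, both on the minus strand. Mdm1 ended 272.046 kb and Il22 ended 230.998 kb before the start of Ifng, and Ifngas1 ended on its Ifng side 56.14 kb past Ifng. Exon boundaries were not used here. The 250 bases before the start of Ifng and of Ifngas1 are shown because both windows lay wholly inside peaks in all 3 Th1 lists and wholly outside peaks in the other 6. They are written 5′ to 3′ on the strand of the gene, from RefSeq on GRCm38.p6. Capitals mark a TATA box (TATAAA) before Ifng and the T-box core GTGTGA, read on the other strand as TCACAC, before Ifngas1.
Ifng, chr10:118440796-118441045, plus strand: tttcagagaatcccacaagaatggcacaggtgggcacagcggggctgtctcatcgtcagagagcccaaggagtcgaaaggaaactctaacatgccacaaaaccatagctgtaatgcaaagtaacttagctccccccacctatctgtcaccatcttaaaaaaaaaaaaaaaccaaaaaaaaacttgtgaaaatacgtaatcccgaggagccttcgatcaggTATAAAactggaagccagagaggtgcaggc
Ifngas1, chr10:118556526-118556775, minus strand: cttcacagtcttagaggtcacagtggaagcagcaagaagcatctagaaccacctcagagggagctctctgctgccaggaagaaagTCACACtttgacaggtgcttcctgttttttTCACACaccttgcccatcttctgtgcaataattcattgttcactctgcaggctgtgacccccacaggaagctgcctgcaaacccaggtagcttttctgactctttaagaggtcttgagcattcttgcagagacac

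The Ifng window held 45.2% G and C and 6 CG dinucleotides, and its TATA box began 30 bases before the start. The Ifngas1 window held 48.8% G and C and no CG dinucleotide, and its 2 T-box core matches began 165 and 135 bases before the start. Over 32851 windows of the same length the median was 52.4% G and C with 6 CG dinucleotides, TATAAA was found in 12.4% and GTGTGA in 12.3%, each searched on both strands. A T-box core is the half-site of factors such as T-bet, the product of Tbx21. Also searched were a STAT motif (TTCNNNGAA, in 7.02% of all windows), which matched once, near the upstream end of the Ifng window, a GC box (GGGCGG, 32.7%), a RUNX core (TGTGGT, 14.05%) and an AP-1 motif (TGANTCA, 6.75%), and the last 3 had no match in either window. These matches describe the letters only. The starts that the table gives for Il22 and Mdm1 lie 380 and 247 bases inside the limits of the genes, so their windows are not upstream sequence and are not shown. The Mdm1 window was rich in G and C (64.0%, with 20 CG dinucleotides), and that of Il22 was not (45.2%, with 3). Neither window had a base inside a peak in any of the 9 lists. Of 17274 windows of protein-coding genes, 29.1 to 30.1% lay wholly inside peaks in naive, 21.9 to 23.6% in Th1 and 23.1 to 26.4% in Th2 lists.

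The lists as a whole held 38026 to 40455 peaks over 276 to 285 Mb in naive cells, 41504 to 46085 peaks over 217 to 240 Mb in Th1 cells and 45894 to 51854 peaks over 232 to 250 Mb in Th2 cells. Read depth is unknown. None of the 36 pairs of libraries shared more than 1 identical peak. All 6 T cell markers were covered over at least 50% of their length in every group. Of the 5 B cell genes, Blk, Ms4a1 and Pax5 were at 0, Cd79a was at 100% in all 9 lists, and Cd79b was at 43.0, 84.0 and 36.0% in the naive lists and at 0 in the others. All 4 myeloid genes were at 0. Cd8a and Cd8b1 were at 100% in all naive lists, while their group means were at most 9.01% (Th1) and 23.3% (Th2), although the naive cells are labelled CD4+ T cells.

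Ifng was bare in naive cells, covered from end to end in Th1 cells and almost bare in Th2 cells. The naive lists gave 0, 0 and 0% of the gene, the Th1 lists 100, 100 and 100% and the Th2 lists 0, 0 and 8.31%. No Th1 list overlapped a list of another group, and 1 of 3 Th2 lists had a small peak in the gene. The difference was 100 points between Th1 and naive cells (SE 2.29; limma, Benjamini-Hochberg adjusted p = 4.6e-08) and -97.2 points between Th2 and Th1 cells (SE 2.29; limma, adjusted p = 3e-07). Between Th2 and naive cells it was 2.77 points (SE 2.29; limma, adjusted p = 0.33). Calls needed an adjusted p below 0.05 together with 25 points or more of difference. By this rule 20.7% of 11600 tested genes were called in Th1 against naive cells, 4.38% as higher and 16.3% as lower. In Th2 against Th1 cells 3.64% were called, 2.08% as higher and 1.56% as lower. In Th2 against naive cells 19.6% were called, 4.26% as higher and 15.4% as lower. Ifng did not vary within the naive or Th1 group, so all of its own spread comes from the 1 small peak of the 3rd Th2 list. With any overlap scored as 100 the Th2 against Th1 difference was -66.7 points and was not called (limma, adjusted p = 0.18).

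The peak over Ifng was also the peak of highest fold enrichment in the whole stretch in each Th1 list. It ran from 118435817 to 118446708 (10.892 kb) in the 1st, from 118436251 to 118446567 (10.317 kb) in the 2nd and from 118436897 to 118446618 (9.722 kb) in the 3rd Th1 list. All 3 thus took in the 4.849-kb gene with several kb before it and less than 1 kb after it. The authors' fold enrichment of this peak was 6.08, 5.24 and 4.61, with −log10 q values of 29.5, 20.8 and 16.0. Within its own list it ranked 3185th, 3193rd and 4017th, in the upper 7.47, 6.93 and 9.68% of peaks. Ifng thus lay among the stronger peaks of each list but far from the very top. The peak reached 5.229, 4.795 and 4.149 kb upstream of the Ifng start. Among protein-coding starts that lay in a peak the median reach was 2.58, 2.35 and 2.43 kb, and 31.6, 31.1 and 35.6% reached further than Ifng. The upstream reach of Ifng was therefore above the median of its list in all 3 libraries.

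The single Th2 peak at Ifng was of another size. It lay at chr10:118443889-118444291 inside the gene, 403 bp wide, in the 3rd Th2 list. Its fold enrichment of 1.93 and −log10 q of 1.39 put it at rank 38757 of that list, at 78.8% of the way down. It was lost when only peaks with a −log10 q of at least 5 were kept, whereas Ifng stayed at 100% in all 3 Th1 lists. In a bulk library, fewer cells with the mark and less mark per cell cannot be told apart.

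**Figure D1:**
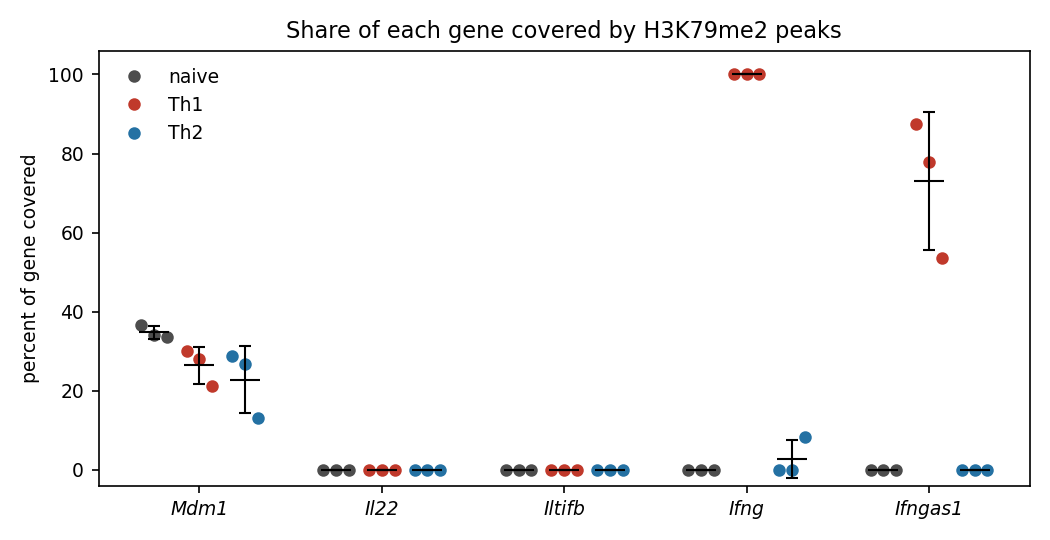
Percent of each gene covered by H3K79me2 peaks (vertical axis), with 1 point per library, the mean as a line and the SD as error bars (n = 3 per group). Ifng is at 100% in the 3 Th1 libraries and at no more than 8.31% elsewhere, Il22 and Iltifb are at 0 throughout, and Mdm1 lies between 13.1 and 36.7%.

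Th1 lists carried the mark far beyond Ifng. Peaks began at 118371225, 118371323 and 118372751 and ended at 118561345, 118563061 and 118562836 in the 3 Th1 lists. The marked stretch thus spanned 190.121, 191.739 and 190.086 kb, and its first bases differed between libraries by 1526 bp and its last by 1716 bp. It started 69.821, 69.723 and 68.295 kb before Ifng and ended 115.451, 117.167 and 116.942 kb past it, which was 4.82, 6.536 and 6.311 kb beyond the start of Ifngas1. On both flanks the lists were empty over long distances. The nearest other peak stood 199 to 223 kb away on the Mdm1 side and 64.0 to 66.3 kb away on the other. The 3 naive lists had no peak in this stretch, and the Th2 lists had only the 403-bp peak described above.

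The outer limits of the stretch were alike in the 3 Th1 libraries, and the filling between them was not. The 1st list had 21 peaks over 160.011 kb (84.2% of its span), the 2nd had 37 peaks over 138.522 kb (72.2%) and the 3rd had 40 peaks over 92.188 kb (48.5%). The median width of these peaks was 4879, 1444 and 1027.5 bp in the same order. The span was 190.6 ± 0.944 kb and the covered length 130.2 ± 34.7 kb (SD, n = 3), so that the covered length varied far more. The whole lists covered 240, 222 and 217 Mb in the same order, and the part of this in the difference was not tested. Of the 191.837 kb between the outermost ends, 89.603 kb (46.7%) lay in peaks of all 3 Th1 lists, 47.942 kb (24.99%) in 2, 26.028 kb (13.6%) in 1 and 28.264 kb (14.7%) in none.

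Exactly 3 parts of the stretch were covered without a break in all 3 Th1 lists for more than 8 kb. The longest, 18.045 kb at chr10:118541176-118559220, held the start of Ifngas1. The next, 9.671 kb at chr10:118436897-118446567, held Ifng. The last, 8.724 kb at chr10:118397457-118406180, lay at -43.589 to -34.866 kb from the Ifng start, in sequence with no annotated gene. The longest part bare in all 3 lists was 7.017 kb at chr10:118423372-118430388, at -17.674 to -10.658 kb from the Ifng start. A bare run of 2.407 kb followed it closely, and another of 2.995 kb lay 9.176 to 12.17 kb after the Ifng start. Ifng thus sat in a block of 17.219 kb set off by gaps common to the 3 libraries.

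Fold enrichment was highest in the Ifng block in each Th1 list. Weighted by peak length it was 5.02, 4.55 and 4.47 in that block. In the upstream block, at -69.821 to -17.675 kb from the Ifng start, it was 3.67, 3.45 and 2.61. Between the Ifng block and Ifngas1 it was 3.36, 2.95 and 2.54. Over Ifngas1 it was 3.17, 2.96 and 3.01. The Ifng block was thus above the other 3 parts in each of the 3 lists. Coverage did not follow the same order in the 1st and 2nd lists. It was 87.8, 77.5 and 59.7% of the Ifng block, 92.2, 79.4 and 50.2% of the upstream block, and 90.5, 75.9 and 46.2% of the sequence between Ifng and Ifngas1. The second strongest peak of the stretch lay over the start of Ifngas1 in the 1st and 3rd Th1 lists, with fold enrichments of 4.39 and 3.67. In the 2nd list it lay at chr10:118471209-118473691, between the genes, with 4.14.

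**Figure D2:**
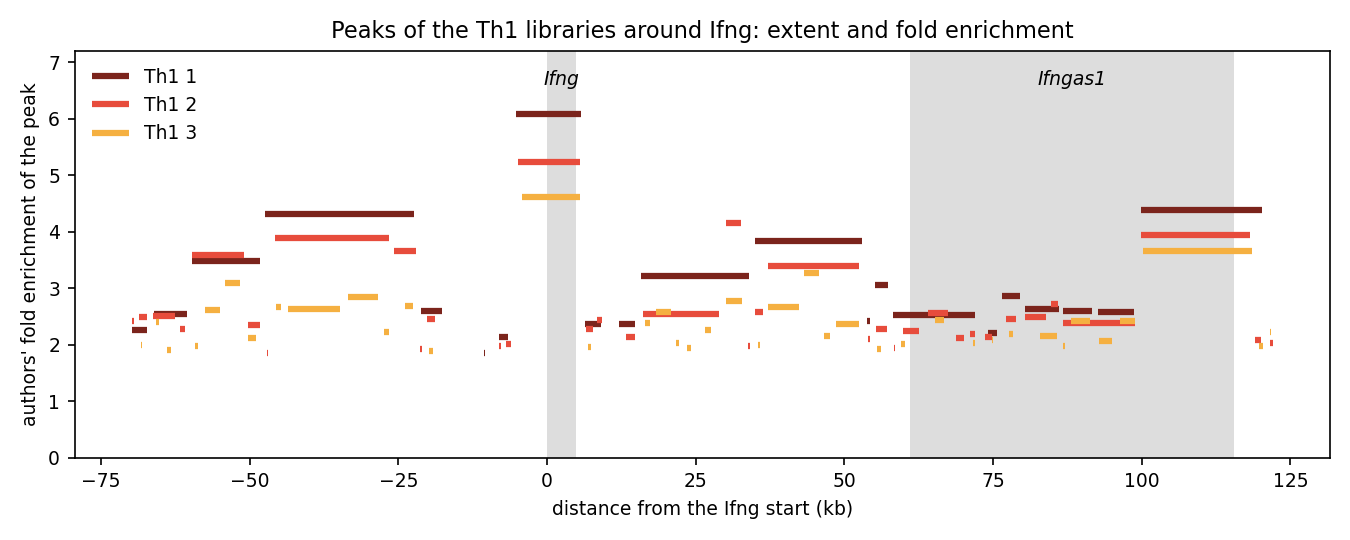
Peaks of the 3 Th1 libraries as horizontal bars, by distance from the Ifng start in kb (horizontal axis) and by the authors' fold enrichment (vertical axis, starting at 0), with Ifng and Ifngas1 shaded. The bar over Ifng is the highest in each library (6.08, 5.24 and 4.61), and bars over the far end of Ifngas1 reach 4.39, 3.94 and 3.67.

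Ifngas1 was marked in the 3 Th1 lists and in no others. Coverage was 87.4, 78.0 and 53.6% of this 54.491-kb gene in the 3 Th1 lists (73.0 ± 17.4%, SD, n = 3), which is 47.637, 42.492 and 29.21 kb. It was 0 in all naive and Th2 lists. The spread between Th1 lists was wide, but the groups did not overlap. As a noncoding gene it was not in the fit of protein-coding genes, and its tiles were tested as part of the stretch. From Iltifb to the next protein-coding gene, Dyrk2, only 2.80, 3.34 and 4.995% of the bases covered in the 3 Th1 lists lay in Ifng and 27.5, 29.3 and 30.1% in Ifngas1. The rest lay in neither. In the whole Th1 lists protein-coding genes held 87.3, 87.6 and 88.4% of the bases covered. These shares are not like for like. The window was drawn between Iltifb and Dyrk2, and Ifng, of 4.849 kb, is the only protein-coding gene inside it. With a long covered stretch around so short a gene, its share was bound to be small.

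Tests by 5-kb tile showed the same stretch without use of gene limits. From Mdm1 to 100 kb past Ifng 41 tiles varied between libraries. In Th1 against naive cells 33 of them were called higher and 0 lower, or 165 kb, at the same thresholds as for genes (limma, Benjamini-Hochberg). Of all 84522 tiles tested, 33.8% were called in this comparison, 7.68% as higher and 26.2% as lower. In Th2 against Th1 cells 28 tiles were called lower and 0 higher, or 140 kb, where 8.75% of all tiles were called, 5.8% as higher and 2.95% as lower. In Th2 against naive cells limma called 0 of the 41 tiles, with 1 at an unadjusted p under 0.05, where 32.7% of all were called, 9.04% as higher and 23.6% as lower. Tiles next to each other share peaks and are not independent. Most of the 41 tiles were at 0 in all naive and Th2 lists and varied only through the Th1 lists. At such tiles Th1 cells could not be called lower, and Th2 cells could not be called higher than Th1 cells. Nor could Th2 cells be called there against naive cells in either direction. The counts are therefore not like the shares over all tiles, which are given for scale only. When only peaks with a −log10 q of at least 5 were kept, the called length fell to 40 kb in Th1 against naive and to 35 kb in Th2 against Th1 cells.

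The called tiles formed 3 unbroken runs, the last of which goes on past the 100-kb window of the 41 tiles. They were 55 kb upstream of Ifng (chr10:118370001-118425000), 15 kb over Ifng (chr10:118435001-118450000) and 110 kb from beyond Ifng past the start of Ifngas1 (chr10:118455001-118565000). The last run was the 21st longest of 2693 runs called higher in Th1 cells, whose median was 5 kb and longest 225 kb. With gaps of up to 3 uncalled tiles bridged, the runs joined into 195 kb, the 11th longest of 1961, the longest being 325 kb. The stretch was therefore among the long gains of Th1 cells but not the longest.

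**Figure D3:**
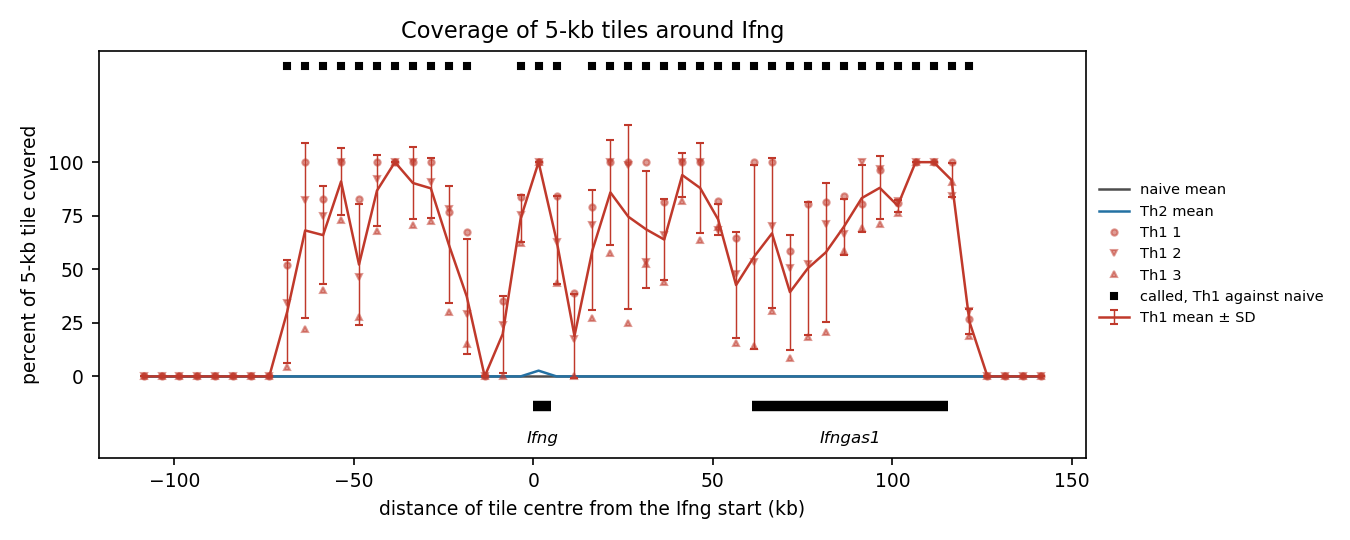
Percent of each 5-kb tile covered (vertical axis) by distance of the tile centre from the Ifng start in kb (horizontal axis), with 1 symbol per Th1 library, the Th1 mean and SD (n = 3), and the naive and Th2 means as lines. Black squares mark tiles called in Th1 against naive cells, and within the plotted window the naive line stays at 0 and the Th2 line at or below 2.69%.

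The 3 regions of the locus differed in how much sequence was covered. Within 100 kb of Ifng (204.849 kb in all) the naive lists covered 0 kb, the Th1 lists 144.56, 123.674 and 77.604 kb and the Th2 lists 0, 0 and 0.403 kb. Every Th1 list was above every other list. The difference of means was 115 kb between Th1 and naive cells and -115 kb between Th2 and Th1 cells (2-sided exact permutation test, p = 0.1 and adjusted over 9 tests 0.225 for both). Between Th2 and naive cells it was 0.134 kb (exact permutation p = 1, adjusted p = 1). With 3 libraries against 3, 0.1 is the smallest p this test can give. With peaks of a −log10 q of at least 5 the first difference was 59.2 kb.

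Between Il22 and Ifng (230.998 kb) the Th1 lists covered 55.057, 47.413 and 30.349 kb, and all naive and Th2 lists covered 0 kb (44.3 ± 12.6 kb in Th1, SD, n = 3; exact permutation p = 0.1, adjusted p = 0.225). The covered part was all on the Ifng side of Iltifb. It also lay wholly within 100 kb of Ifng, so these kb are already counted in that region. The tests of these regions are therefore not independent. The 79.581 kb from Il22 to Iltifb were at 0 in all 9 lists, as were 12 pseudogenes between Il22 and Ifng. Some of these are of equal length (Gm9029 and Gm9030 2.846 kb, Gm9585 and Gm9035 1.666 kb), and their likeness in sequence was not examined. How reads that map to several places were treated is not known. A 0 here, and in the bare flank that holds this sequence, is therefore only the absence of a called peak. Between Mdm1 and Il22 (35.584 kb) the Th1 lists covered 0.539, 0.424 and 0 kb and the other lists 0 kb (exact permutation p = 0.4, adjusted p = 0.6). These were small peaks just past the end of Mdm1, at chr10:118171221-118171759 and chr10:118171331-118171754. The noncoding gene Gm40775, also between Mdm1 and Il22, was at 0 in all lists.

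Il22 had no peak in any of the 9 lists, and neither had Iltifb. A value of 0 in every library leaves nothing to test, so both were left out of the fit. They share this with 9474 protein-coding genes (43.8%) that were at 0 in all lists. In the best local alignment of the sequences around the listed starts of Il22 and Iltifb, 98 of 102 aligned bases were identical (96.1%). The longest identical run of the sequences was 30 bases. The bases outside that alignment were not scored. The listed start of Il22 lies 380 bases inside the gene limits and that of Iltifb at its limit, so the sequences are not equivalent in position. How the authors treated reads that map to both copies is not given in the sources used here. The value of 0 at these genes is therefore the absence of a called peak and sets no limit on the mark.

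Mdm1 was partly covered in every list, over the first part of the gene. Coverage was 36.7, 34.1 and 33.5% in naive, 30.1, 28.0 and 21.3% in Th1 and 28.7, 26.7 and 13.1% in Th2 lists. Every naive list was above every Th1 and Th2 list, and the Th1 and Th2 lists overlapped. Means were 34.8 ± 1.69, 26.4 ± 4.61 and 22.8 ± 8.45% (SD, n = 3 each). No difference was called. It was -8.32 points in Th1 against naive cells (SE 4.24; limma, adjusted p = 0.13), -11.9 in Th2 against naive cells (SE 4.24; limma, adjusted p = 0.042, under the minimum of 25 points) and -3.61 in Th2 against Th1 cells (SE 4.24; limma, adjusted p = 0.68). The median of all tested genes was also below 0 in the comparisons with naive cells, at -5.54 and -5.50 points. With libraries centred to one mean the Mdm1 differences from naive cells shrank to -0.080 and -4.24 points. Without the 3rd Th2 library the Th2 against Th1 difference turned to 1.23 points (limma, adjusted p = 0.90).

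The position of the Mdm1 mark was steadier than its length. The first peak began 0.178 to 0.28 kb past the Mdm1 start in naive, 0.148 to 0.334 kb in Th1 and 0.335 to 0.467 kb in Th2 lists. It ran as 1 piece to 9.322, 9.406 and 9.382 kb in the 3 naive lists and to 8.048 kb in the 1st Th1 and 8.323 kb in the 1st Th2 list. In the 2nd and 3rd Th1 and the 2nd Th2 list it was broken into pieces that together reached 8.402, 7.99 and 8.518 kb. In the 3rd Th2 list it ended at 4.074 kb. Small peaks of 0.184 to 0.973 kb followed further inside the gene in the 1st and 2nd naive and the 1st and 2nd Th1 lists. The first peak, its later pieces included, thus reached further in all naive lists than in any Th1 or Th2 list, while the small later peaks reached 20.149 kb in the 1st Th1 list. By fold enrichment within its own list the first peak stood in the upper 20.1 to 21.0% in naive, 20.1 to 25.9% in Th1 and 30.5 to 47.2% in Th2 lists. With only peaks of a −log10 q of at least 5, the Th2 against naive difference of Mdm1 grew to -33.3 points and was called (limma, adjusted p = 0.0036). The Th2 peaks on Mdm1, with −log10 q values between 2.05 and 3.14, were all below that limit.

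**Figure D4:**
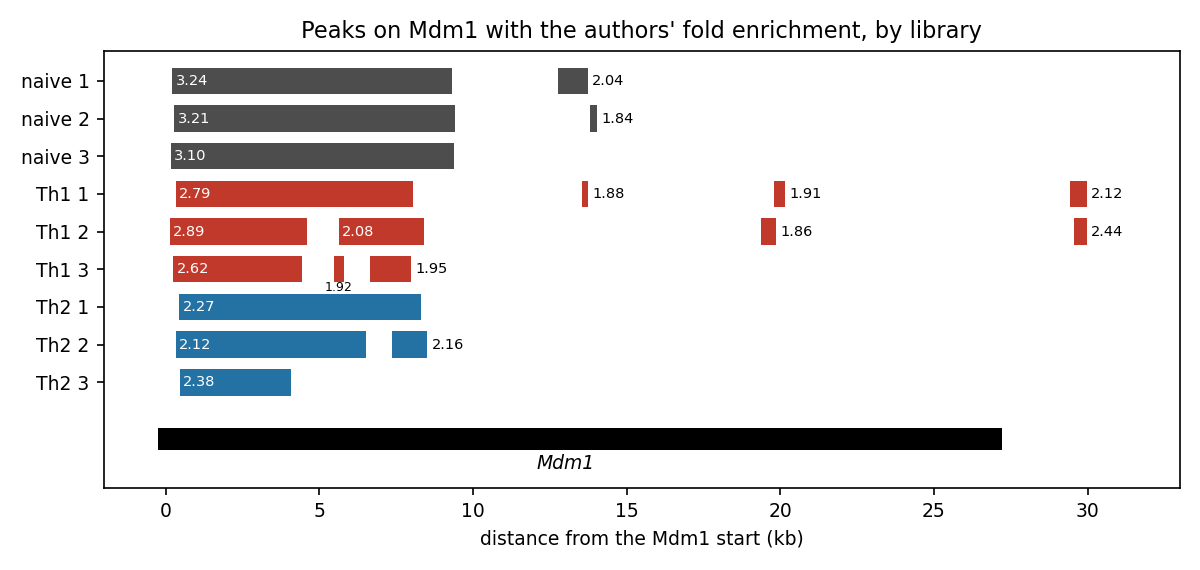
Peaks on Mdm1 in each library (rows) by distance from the Mdm1 start in kb (horizontal axis), with the authors' fold enrichment printed at each peak and the gene as a black bar. The first naive peaks are unbroken and end between 9.322 and 9.406 kb, and those of Th1 and Th2 cells end earlier or are broken. Small peaks follow in 2 naive and 2 Th1 libraries.

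The next protein-coding genes outside the stretch behaved in other ways. Rap1b, a small GTPase gene 595.071 kb before Ifng, was at 100% in all 9 lists. Dyrk2, a protein kinase gene 409.707 kb past Ifng, fell from 79.4 ± 1.44% in naive to 53.9 ± 4.32% in Th1 (-25.5 points; limma, adjusted p = 5.3e-05) and 53.5 ± 1.90% in Th2 cells (-26.0 points; limma, adjusted p = 5.1e-05). Both calls lie close to the minimum of 25 points. Of all tested genes 16.3 and 15.4% were called lower in these comparisons, and the medians were -5.54 and -5.50 points. The fall is therefore not read as particular to this neighbour. Rap1b, at 100% already in the naive lists, had no room to gain on this measure, so only Dyrk2 could have gained, and it fell. The noncoding gene Gm32663, on the far side of Mdm1, was covered over at most 8.88% in any list.

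Few genes had the profile of Ifng over the 9 libraries. By Euclidean distance of percent covered, the 5 most alike were Ffar3 and Ccl3 (8.31 points each), AA467197 (8.85), Kcnj8 (18.8) and Il18rap (23.2). Ccl3 encodes a chemokine that attracts monocytes and T cells, Ffar3 a receptor for short-chain fatty acids and Il18rap a chain of the IL-18 receptor. The limits of Ccl3 overlap those of Ccl4 in the RefSeq gene table, so its value is uncertain. Ffar3 and Ccl3 stood at 0 in all naive and Th2 and at 100% in all Th1 lists, and AA467197 at 100, 100 and 97.0% in the Th1 lists and 0 elsewhere. Of all protein-coding genes, 17 were at 0 in every naive and at 100% in every Th1 list. Of these, Ifng, Ccl3 and Ffar3 were the 3 with less than 10% in every Th2 list. The genes closest to Mdm1 were Bbs4 (12.8 points), Csgalnact2 (13.6), Fbh1 (13.8), Glt8d1 (13.9) and Zdhhc13 (14.4), at greater distances than the first 3 for Ifng.

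Genes that act before and after IFNg were read from a list of 24, of which 19 varied between libraries. The list was drawn up with earlier results of these data known, so its counts are not independent of these values. In Th1 against naive cells 10 were called higher and 1 lower, where 4.38 and 16.3% of all tested genes were (median difference 43.4 points, against -5.54 over all tested genes). In Th2 against naive cells 7 were called higher and 3 lower, beside 4.26 and 15.4% of all (median 6.58 points, against -5.50). With libraries centred to one mean this split was 7 higher and 0 lower. In Th2 against Th1 cells 2 were called higher and 7 lower, beside 2.08 and 1.56% of all (median -7.53 points, against 0.018). With any overlap scored as 100 only 7 of the 24 genes varied, and 6, 3 and 1 of these 7 were called, in place of 11, 10 and 9 of 19.

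The transcription factors that drive Ifng did not all follow it. Tbx21, which encodes T-bet, was at 0, 100 and 99.9% in the naive, Th1 and Th2 groups, and Bhlhe40, a cofactor of cytokine expression, was at 0, 99.8 and 99.8%. Both rose in Th2 as in Th1 cells (limma, adjusted p = 6.8e-10 each in Th2 and 5.9e-10 each in Th1 against naive cells), although Ifng itself was almost bare in Th2 cells. With Tbx21 and Bhlhe40 at or near 100% in both groups, percent covered cannot show whether the mark was stronger in Th1 or in Th2 cells. Hlx, a homeobox partner of T-bet, was closer to Ifng, with 0, 100 and 13.9 ± 24.2% (Th2 minus Th1 -86.1 points; limma, adjusted p = 0.0014). Eomes, a T-box factor related to T-bet, was at 0, 47.4 ± 8.08 and 5.84 ± 7.66% (Th2 minus Th1 -41.5 points; limma, adjusted p = 0.0011). Runx3, a partner of T-bet, rose in both cultured groups, from 40.3% to 98.9 and 88.9% (limma, adjusted p = 7.6e-06 and 2.2e-05). Irf8, a factor induced by IFNg, rose from 28.9% to 93.5 and 86.0% (limma, adjusted p = 4.5e-06 and 9.5e-06).

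Of the receptors for cytokines that induce Ifng, both chains of the IL-18 receptor and 1 chain of the IL-12 receptor were lower in Th2 than in Th1 cells. In group order (naive, Th1, Th2) Il18r1 was at 33.1, 77.7 and 2.12% and Il18rap at 0, 87.4 and 6.58%, or -75.5 and -80.8 points in Th2 against Th1 cells (limma, adjusted p = 1.5e-06 and 1.7e-06). Il12rb2 was at 29.3, 96.4 and 70.7% (Th2 minus Th1 -25.6 points; limma, adjusted p = 0.00014), though it overlaps Serbp1. Il12rb1 rose in both, from 37.9% to 81.3 and 88.3% (limma, adjusted p = 9.6e-05 and 4.6e-05). Il12a, Il12b and Il18, which encode the cytokines themselves and are mostly used by myeloid cells, were at 0 in all lists, as was Twist1, a repressor induced in Th1 cells.

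The receptor chains of IFNg and its signalling genes did not move together. Ifngr2, the signalling chain, was at 72.9 ± 0.135% in naive, 0% in all 3 Th1 and 61.0 ± 10.4% in Th2 cells (Th1 minus naive -72.9 points; limma, adjusted p = 7.1e-06). It was the 1 gene of the list called lower in the cells that carried the mark on Ifng. Ifngr1, the ligand-binding chain, was at 92.7, 92.0 and 65.2%, lower in Th2 cells (-26.7 points against Th1; limma, adjusted p = 0.00077). Jak2, a kinase of the receptor, was at 65.3, 65.1 and 92.3%, higher in Th2 cells (27.2 points against Th1; limma, adjusted p = 0.00052). Irf1, a factor induced by IFNg, was at 100% in all lists.

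Of 15 genes that act with IL-22, 13 varied. In Th1 against naive cells 2 rose and 0 fell, where 20.7% of all tested genes were called (median 0.580 points). When peaks were matched for covered length, 2 of 12 rose and 1 fell. Maf, a factor of IL-10 and Th2 cytokine genes, went from 11.1 ± 19.2% to 100% (limma, adjusted p = 5.4e-05), and Il23r, a chain of the receptor for IL-23, from 0 to 62.8 ± 11.8% (limma, adjusted p = 3.4e-05). In Th2 against naive cells Maf rose to 100% and Il10rb, the chain that the IL-22 receptor shares with others, fell from 91.7 to 54.0% (-37.7 points; limma, adjusted p = 0.0034), where 19.6% of all genes were called. With libraries centred or matched for covered length the split was 2 higher and 1 lower. In Th2 against Th1 cells 1 gene, Il23r, was lower (-49.7 points; limma, adjusted p = 0.0008), where 3.64% of all were called. With so few calls, nothing particular to the list is read from them. Ahr, a regulator of Il22, was at 16.5, 10.85 and 34.7% and was not called, while Il22ra1, expressed on epithelia, was at 0 throughout.

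Genes of NK cells and innate lymphocytes, which also make IFNg, were read beside Ifng through 6 markers. Their summed coverage was 120 to 136 points in naive, 224 to 252 in Th1 and 87.3 to 103 in Th2 lists, and so higher in every Th1 list than in any other. Klrk1 and Klre1 had the widest margins of Th1 over both other groups. Klrk1 stood at 26.9 ± 8.50% in naive, 99.8 ± 0.264% in Th1 and 2.60 ± 3.20% in Th2 lists, and Klre1 stood at 0, 88.5 ± 8.39 and 1.54 ± 0.574%. Ncr1, which defines NK cells, was at 0 in all 9 lists, Klrb1c and Fcer1g had group means of at most 0.820 and 1.56%, and Tyrobp was lower in Th1 (45.0 ± 9.34%) than in naive cells (100%). Their part in the Ifng result was not tested.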

How the data were processed

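H3K79me2 was mapped by chromatin immunoprecipitation and sequencing after formaldehyde fixation, in 9 libraries, and 9 input libraries without a peak list entered no test. The submitters' processing notes name Bowtie2, SAMtools, Picard and MACS2 with mm10. Their versions, their settings and any role of the inputs are not given in the sources used here. The authors deposited, peak by peak, its position, a score for display, its fold over the caller's background (a ratio), its −log10 p and its −log10 q. Fold and −log10 q described, ranked and filtered peaks inside 1 list, and no test compared the lists by fold. Ranks by fold were set side by side across groups for Mdm1. Groups were also compared under a limit on −log10 q, and those comparisons are not free of read depth. Read depth is unknown, and a library with more reads could yield longer peaks.

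Peaks were merged per library, and percent covered was computed with Python 3.11.15 for 21631 genes and for 5-kb tiles. The 11600 genes and 84522 tiles that varied between libraries were fitted in limma 3.58.1 (R 4.3.3; lmFit, eBayes with a variance trend) in 1 fit of 9 libraries with 6 residual degrees of freedom, tested first on simulated data. Calls needed a Benjamini-Hochberg adjusted p under 0.05 and at least 25 points. Kb of a region were compared by 2-sided exact permutation tests.

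The members, gene lists and markers were chosen with earlier results of these data known. Named were the members, all annotated genes of the stretch and its flanks, listed genes called in a comparison or with a stated role (2 of them counted in the lists but not reported here by name), and the 5 genes closest to Ifng and to Mdm1. The promoter windows, the runs of tiles, the parts of the stretch, the counts of genes with the pattern of Ifng and the shares inside genes were chosen after the values were seen. RefSeq positions and sequences are on GRCm38.p6, and all coordinates are 1-based. No pairing by replicate number was seen: none of 9 same-numbered pairs correlated above 0.1 in their deviations from group means. A link that moved few genes would not show this way. Alternatives were stricter or length-matched peaks, centring, other tile and window sizes, other gene limits, any overlap, no filter, no variance trend, a block for replicate number and leaving out each library.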

Additional observations from a re-analysis of the deposited data

How the results depend on the processing

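Of 414 values from alternatives over 27 results, 398 kept their direction and their side of the threshold, or stayed within 1.5 times a reported count. For kb of regions only a change of direction was counted, as their exact test gives no p below 0.1. Il22 had no value other than 0. Results for regions and for Il22 thus had little or no room to count as changed, and 398 overstates the stability. The size of values could also move. With libraries centred to one mean the Mdm1 difference of -8.32 points between Th1 and naive cells was -0.080 points, and that of Ifng between Th2 and naive cells went from 2.77 to 10.5 points (limma, adjusted p = 0.0029), under the 25 points a call needs. With peaks of a −log10 q of at least 5 the Mdm1 difference was -18.5 points, and the Th1 gain between Il22 and Ifng went from 44.3 to 28.2 kb. Il22 stayed at 0 in every setting run. With any overlap scored as 100, the Ifng difference between Th2 and Th1 cells was -66.7 points and no longer called (limma, adjusted p = 0.18), and called genes of the IFNg list numbered 6 in Th1 against naive, 3 in Th2 against naive and 1 in Th2 against Th1 cells. Those of the IL-22 list then numbered 1, 1 and 0, and 4 in Th1 against naive cells with peaks of a −log10 q of at least 5. That limit also brought the Mdm1 difference between Th2 and naive cells to -33.3 points and the called tiles of that comparison to 10 kb, with 40 kb of called tiles in Th1 against naive and 35 kb in Th2 against Th1 cells. Tiles of 2 kb gave 2 kb in Th2 against naive cells. The cause of these changes was not tested.

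Without the 3rd Th2 library the Mdm1 difference between Th2 and Th1 cells turned to 1.23 points, and over all left-out libraries it ran from -6.55 to 1.23. Leaving out each library in turn gave 1 to 2 called IL-22 genes in Th2 against Th1 cells (2 without the 2nd Th1 library), and 0 to 5 kb of called tiles in Th2 against naive cells. Ifng in Th1 against naive cells stayed at 100 points, and kb within 100 kb of Ifng ran from 100.6 to 134.1. With a block for replicate number, called tiles were 155 kb in Th1 against naive, 0 kb in Th2 against naive and 110 kb in Th2 against Th1 cells, Mdm1 had an adjusted p of 0.0487 in Th1 against naive cells (limma), and region tests could not go below p = 0.25 (exact permutation of signs). Same-numbered libraries correlated between -0.0745 and 0.00147 in their deviations from group means, so no pairing by number was seen. A link that moved few genes would not show in these correlations.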

Other observations

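Set against all 19442 stretches between neighbouring protein-coding genes, a comparison made after the data were seen, both stretches next to Ifng ranked high for covered sequence gained from naive to Th1 cells. The stretch from Ifng to Dyrk2, which holds Ifngas1, held 11.3 ± 2.68 kb in naive cells, 89.3 ± 25.8 kb in Th1 cells and 0.826 ± 0.228 kb in Th2 cells (SD, n = 3 each), a gain of 78.0 kb that ranked 17th. None of the naive kb there lay in the Th1 stretch around Ifng. The stretch from Iltifb to Ifng gained 44.3 kb and ranked 36th. Ranks were by kb gained and took no account of length, and a longer stretch can gain more. Length was 409.707 kb from Ifng to Dyrk2 and 146.007 kb from Iltifb to Ifng. It was 1785.609 kb from Myc to Gsdmc and 428.653 kb from Bcl2l11 to Spdye4c. In the stretches that ranked first, from Myc to Gsdmc and from Bcl2l11 to Spdye4c, Th2 cells also held more than naive cells (470 ± 58.5 against 215 ± 4.27 kb, and 173 ± 29.0 against 12.2 ± 0.453 kb), whereas Th2 cells held no covered base from Iltifb to Ifng.

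When peaks less than 20 kb apart were joined, the Ifng stretch became 1 piece in each Th1 list, of 190.121, 191.739 and 190.086 kb. It then ranked 292nd of 7563, 256th of 7703 and 239th of 7556 pieces by width. When only gaps up to 5 kb were joined, the piece over Ifng was 130.957 kb in the 1st and 130.059 kb in the 2nd list, and 11.551 kb in the 3rd.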
